A study of Mus musculus with 4 samples.

Results

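Insulin signalling and glucose-sensing genes were followed in leukocytes of the mouse hindpaw through 8 genes taken by symbol from the 32285 genes of the deposited matrices: Insr, Irs1, Irs2, Igf1r, Foxo1, Pik3ip1, Txnip and Arrdc4. CD45+ cells of male mice were sorted from digested hindpaws and sequenced singly in droplets, with a unique molecular identifier (UMI) on each captured transcript. WT littermates were compared with DB mice, which are homozygous for the Lepr db mutation of the leptin receptor on C57BLKS/J and are obese and diabetic, and both were sampled at 12 and 21 weeks. Each of the 4 conditions had 1 library from 2 to 3 pooled mice, so no condition had a replicate and no test was run between them. DB mice differ from WT in weight and leptin signalling as well as in glucose, and these cannot be told apart here.

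The insulin receptor (Insr) and the IGF-1 receptor (Igf1r) are paired receptor tyrosine kinases that phosphorylate the adaptors IRS1 and IRS2, which recruit phosphoinositide 3-kinase (PI3K) and, through AKT, keep the transcription factor FOXO1 out of the nucleus. PIK3IP1 is a membrane protein that restrains PI3K. TXNIP and ARRDC4 are related alpha-arrestins that limit glucose uptake, and their genes are classic targets of the glucose-sensing factors MondoA and ChREBP, which bind paired CACGTG-like motifs.

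The regulatory sequence known for this glucose response lies just upstream of Txnip, so the stretch from 200 to 40 bases before the RefSeq start site is printed for both arrestin genes, with matches to CACGNG (read on either strand, CACGTG included) or to the forkhead motif GTAAACA in capitals. The Txnip stretch is chr3:96557757-96557917 on the plus strand and the Arrdc4 stretch is chr7:68749278-68749438 on the minus strand of GRCm38.p6.
Txnip: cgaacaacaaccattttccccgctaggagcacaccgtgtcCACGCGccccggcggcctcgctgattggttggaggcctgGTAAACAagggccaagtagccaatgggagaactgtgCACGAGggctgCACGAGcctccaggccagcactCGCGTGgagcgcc
Arrdc4: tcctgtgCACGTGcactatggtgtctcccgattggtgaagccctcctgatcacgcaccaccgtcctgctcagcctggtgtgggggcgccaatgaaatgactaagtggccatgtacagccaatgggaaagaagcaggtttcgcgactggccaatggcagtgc
The Txnip window of 300 bases around the start site held 4 matches to CACGNG, with first bases at -160, -85, -74 and -52, and 1 match to GTAAACA at -121. The Arrdc4 window held 1 match, the palindrome CACGTG at -193. Among the other genes with a RefSeq window, CACGTG was present in Irs1 at -115 and in Irs2 at -44, CACGNG without it in Igf1r and Pik3ip1, and neither in Foxo1. Of 32851 mouse windows of this length, 7.15% held CACGTG, 27.5% CACGNG and 3.65% GTAAACA. These matches describe the letters only, and the members' windows were richer in G and C (54.7% to 76.0%) than the mean of all windows (53.8%).

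In GENCODE M21 (GRCm38), Insr (ENSMUSG00000005534) lies on chromosome 8 at 3122061 to 3279617 and Igf1r (ENSMUSG00000005533) on chromosome 7 at 67952827 to 68233668. Irs1 (ENSMUSG00000055980) is on chromosome 1 at 82233101 to 82291416 and Irs2 (ENSMUSG00000038894) on chromosome 8 at 10984681 to 11008458. Foxo1 (ENSMUSG00000044167) spans 52268336 to 52353221 of chromosome 3, where the annotated gene Gm38034 overlaps it on the same strand, so reads of these could be split between them. Pik3ip1 (ENSMUSG00000034614) is on chromosome 11 at 3330401 to 3342971, Txnip (ENSMUSG00000038393) on chromosome 3 at 96557957 to 96561883 and Arrdc4 (ENSMUSG00000042659) on chromosome 7 at 68736995 to 68749241.

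The files held 30793 barcodes, of which 27800 passed limits of 200 genes or more and 10% mitochondrial UMIs or fewer. Marker genes placed 22437 of these in 12 leukocyte classes (4439 and 5384 in WT and DB at 12 weeks, then 5778 and 6836 in WT and DB at 21 weeks, the order used wherever 4 values are given). Another 204 were stromal, endothelial or keratinocyte-like, 5159 stayed ungated and 3327 lay near a gate limit. Levels are UMIs summed over a class and library as counts-per-million (CPM) of all UMIs in that sum, from 38546184 to 55585252 UMIs of gated leukocytes per library. For 10 of the 12 classes, markers not used for gating were highest in their own class, the exceptions being those of dendritic epidermal T cells (DETC), highest in NK cells, and of type 2 conventional dendritic cells (cDC2), highest in B cells. In 21-week-DB, type 1 dendritic cells (cDC1) had 13 barcodes and were not summed, and neutrophils had 39 barcodes. Neutrophil sums carried stromal gate genes at 76.8, 184, 336 and 1461 CPM in the 4 libraries, against at most 49.4 CPM in any other leukocyte class. Free RNA was not removed, and macrophage genes kept out of the gates were at 1075 CPM in macrophages and at 13.1 to 25.7 CPM in the 6 lymphoid classes, so low levels of a member may hold some background, which was not measured for the members. The 2 libraries of 21 weeks shared 146 barcode sequences and those of 12 weeks shared 38.

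The first question was which hindpaw leukocytes carry each gene. Irs2, Foxo1 and Pik3ip1 were higher in lymphoid than in myeloid classes, Arrdc4 and, by less, Insr were lower, and Igf1r and Txnip passed no threshold in this comparison but peaked in particular classes. The comparison used sums per class and library in an edgeR quasi-likelihood fit with library as a block (47 sums, 11783 genes, Benjamini-Hochberg adjusted p). In that fit 34.1% of all genes were called higher and 29.7% lower in lymphoid classes, so a call is common, and the sizes below carry more than the calls. Lymphoid classes were alpha-beta T, dermal gamma-delta T, DETC, ILC2, NK and B cells, and myeloid classes were macrophages, monocyte-derived cells, cDC1, cDC2, neutrophils and mast cells. Between single classes fewer genes were called higher: against macrophages 32.7% of all genes were called higher in alpha-beta T cells, 30.8% in dermal gamma-delta T cells, 30.8% in DETC, 33.4% in ILC2, 21.1% in NK and 27.1% in B cells, and of the myeloid classes 23.3% in monocyte-derived cells, 14.4% in cDC1, 21.7% in cDC2, 21.7% in neutrophils and 24.5% in mast cells. Of the downward calls used here, 32.0% of all genes were lower in dermal gamma-delta T cells, 19.8% in cDC1 and 29.8% in mast cells.

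Among the receptors, Insr had its highest level in mast cells, at 51.9, 55.4, 39.1 and 56.0 CPM in the 4 libraries. B cells followed at 43.4, 37.8, 43.9 and 23.2 CPM and macrophages at 33.4, 30.3, 27.1 and 24.5 CPM, and the ranges of mast and B cells overlapped. Against macrophages, Insr was 0.89 ± 0.18 log2 units higher in mast cells (SE, edgeR adjusted p = 3.57e-05). It was 1.14 ± 0.17 lower in dermal gamma-delta T cells on the same scale (log2 difference -1.14, edgeR adjusted p = 1.76e-07), and the B cell difference of 0.54 ± 0.20 (adjusted p = 0.0178) passed the threshold but was lost when 12-week-WT, 12-week-DB or 21-week-WT was left out (adjusted p of 0.118, 0.0662 and 0.132). Lymphoid minus myeloid was -0.49 ± 0.10 (adjusted p = 9.41e-05). At this depth a UMI of Insr was seen in 18.4%, 17.8%, 17.2% and 11.2% of gated leukocytes. Among barcodes with at least 2000 UMIs, each thinned to 2000, it was seen in 5.44%, 5.09%, 4.74% and 4.07%. Shallower barcodes were left out of the thinned percents, and median depth in mast cells was 1414 to 2026 UMIs, so the mix of classes differs.

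Igf1r had a different distribution from Insr. Mast cells held 559, 404, 356 and 236 CPM and neutrophils 274, 306, 266 and 215 CPM, whereas cDC2 held 27.4, 30.9, 28.9 and 31.8 CPM. The lymphoid classes split, with dermal gamma-delta T cells at 222, 205, 234 and 211 CPM and DETC at 179, 158, 267 and 164 CPM, but alpha-beta T cells at 38.5, 38.8, 34.2 and 30.5 CPM. These groups did not overlap: each library of mast cells, neutrophils, dermal gamma-delta T cells and DETC lay above every library of alpha-beta T cells, macrophages and cDC2. Against macrophages the log2 difference of Igf1r was 3.07 ± 0.21 in mast cells (adjusted p = 1.55e-16), 3.07 ± 0.22 in neutrophils (adjusted p = 1.77e-15) and 2.23 ± 0.20 in dermal gamma-delta T cells (adjusted p = 3.25e-13), and it was -2.15 ± 0.38 in cDC1 (adjusted p = 1.23e-05). The lymphoid minus myeloid difference was -0.09 ± 0.12 (adjusted p = 0.549) and changed sign when 12-week-DB was left out. The label of a class rests on markers, and the neutrophil sums carried stromal gate genes, most of all the 39 barcodes of 21-week-DB, as given above.

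Of the adaptors, Irs1 was close to undetected. Over all gated leukocytes it had 17, 7, 4 and 12 UMIs, or 0.441, 0.153, 0.0720 and 0.275 CPM, and 28 of these 40 UMIs were in macrophages. It had 0 UMIs in alpha-beta T cells, dermal gamma-delta T cells, NK cells, monocyte-derived cells, neutrophils and mast cells, and it was too sparse to be fitted. Irs2, the other main adaptor, had UMIs in every class. It was highest in ILC2, innate lymphoid cells of type 2 cytokine responses, at 344, 380, 431 and 498 CPM, which exceeded the macrophage level of 47.1, 36.1, 47.5 and 61.5 CPM in each library. B cells held 341, 183, 329 and 290 CPM and dermal gamma-delta T cells 216, 217, 295 and 383 CPM, so the B cell range lay below that of ILC2 and the dermal gamma-delta T cell range overlapped both. The log2 difference from macrophages was 3.11 ± 0.19 in ILC2 (adjusted p = 2.29e-18), 2.70 ± 0.20 in B cells (adjusted p = 1.37e-15) and 2.48 ± 0.19 in dermal gamma-delta T cells (adjusted p = 1.69e-15). Irs2 was called higher than macrophages in 9 of the 11 other classes, cDC1 (-0.35 ± 0.26, adjusted p = 0.334) and mast cells (-0.15 ± 0.22, adjusted p = 0.586) being the others, and the lymphoid minus myeloid difference was 1.92 ± 0.09 (adjusted p = 5.69e-22). In the ILC2 gate 55.2%, 59.8%, 65.6% and 70.5% of barcodes had a UMI of Irs2 and in the mast cell gate 7.03%, 8.16%, 8.42% and 7.85%, with median depths of 5812 to 7024 and 1414 to 2026 UMIs.

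Foxo1 was highest in DETC, the gamma-delta T cells that reside in mouse epidermis, at 289, 505, 643 and 627 CPM. No other class reached this range: B cells came next at 221, 157, 189 and 128 CPM, followed by alpha-beta T cells at 142, 135, 118 and 98.6 CPM. Macrophages had 31.5, 31.1, 35.8 and 25.7 CPM, and neutrophils 0, 7, 3 and 3 UMIs, the lowest counts of any class summed in all libraries. The log2 difference from macrophages was 4.06 ± 0.20 in DETC (adjusted p = 1.86e-21) and 2.59 ± 0.20 in B cells (adjusted p = 1.04e-14). Between lymphoid and myeloid classes it was 2.31 ± 0.11 (adjusted p = 1.16e-22), and it stayed above 0 in all 6 lymphoid classes compared one by one with macrophages. Among barcodes with at least 2000 UMIs, each thinned to 2000, 30.5%, 52.2%, 65.3% and 60.5% in DETC and 5.28%, 5.73%, 7.90% and 5.14% in macrophages had a UMI of Foxo1.

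Pik3ip1, the PI3K inhibitor, shared the lymphoid pattern with an exception among myeloid classes. ILC2 had 50.4, 38.2, 50.7 and 73.0 CPM, dermal gamma-delta T cells 34.1, 42.7, 44.4 and 95.02 CPM and B cells 55.0, 78.5, 74.5 and 122 CPM. Mast cells, a myeloid class, had 50.6, 67.1, 69.0 and 88.6 CPM, against 4.92, 2.77, 8.02 and 9.68 CPM in macrophages. The log2 difference from macrophages was 3.75 ± 0.26 in B cells (adjusted p = 3.26e-16), 3.47 ± 0.25 in mast cells (adjusted p = 6.85e-16) and 3.11 ± 0.21 in ILC2 (adjusted p = 1.08e-16), and lymphoid minus myeloid was 1.61 ± 0.15 (adjusted p = 6.46e-13). In neutrophils it was 1.71 ± 0.54 (adjusted p = 0.00693), but this rested on 12 UMIs in the 21-week-DB neutrophil sum, which carried stromal gate genes. Without that library the neutrophil difference was 0.34 (adjusted p = 0.729).

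The alpha-arrestin genes differed from each other. Txnip was detected in every class, with mast cells at 1042, 1196, 1156 and 1338 CPM above macrophages at 803, 756, 600 and 784 CPM and cDC2 at 356, 490, 372 and 344 CPM. Its log2 difference from macrophages was 0.69 ± 0.18 in mast cells (adjusted p = 0.00149) and -1.32 ± 0.21 in cDC1 (adjusted p = 2.64e-06), and lymphoid minus myeloid was 0.03 ± 0.08 (adjusted p = 0.839). The mast cell difference for Txnip was 0.55 without 21-week-WT (adjusted p = 0.0521). Arrdc4 was instead high in neutrophils, at 89.9, 87.0, 111 and 114 CPM, in cDC2 at 41.4, 56.3, 66.9 and 73.0 CPM and in macrophages at 43.2, 56.3, 51.8 and 82.1 CPM. In B cells it had 1, 3, 0 and 0 UMIs, and in mast cells 3, 5, 11 and 55 UMIs or 3.79, 8.39, 25.3 and 29.3 CPM. The log2 difference from macrophages was 1.36 ± 0.28 in neutrophils (adjusted p = 6.08e-05), -1.73 ± 0.30 in mast cells (adjusted p = 5.22e-06) and -2.08 ± 0.24 in dermal gamma-delta T cells (adjusted p = 5.59e-10), and lymphoid minus myeloid was -1.99 ± 0.16 (adjusted p = 3.25e-14).

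**Figure D1:**
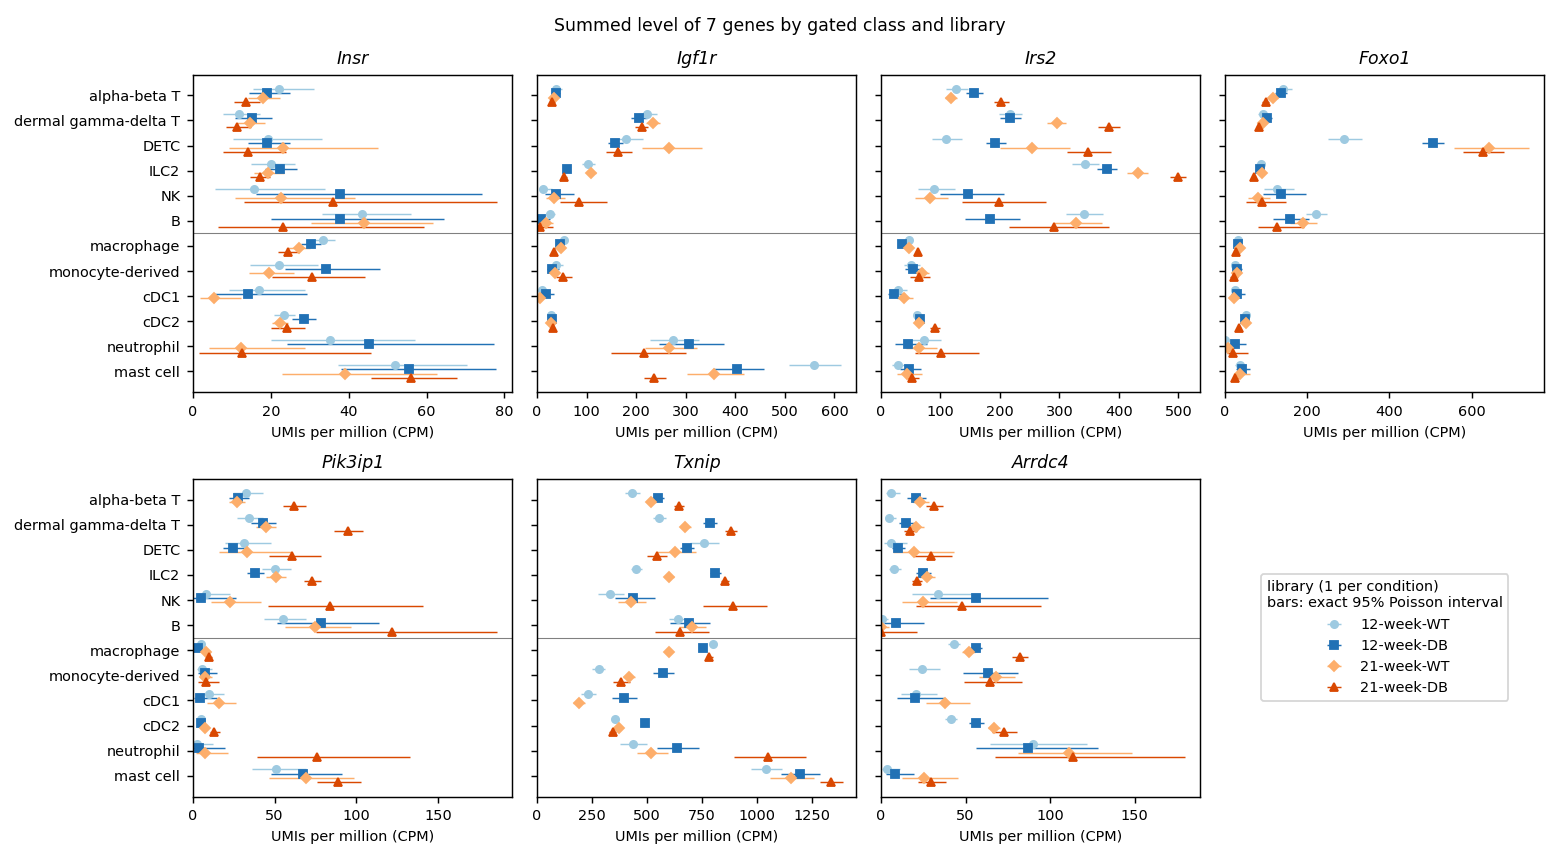
Level of 7 genes (x axis, CPM, linear and starting at 0; each panel has its own scale) in 12 gated leukocyte classes (y axis; lymphoid above the grey line, myeloid below), with 1 point per library and exact 95% Poisson intervals that cover counting error only. Foxo1 in DETC (289 to 643 CPM) and Igf1r in mast cells (236 to 559 CPM) lie apart from most classes, and the 21-week-DB triangles lie highest for Pik3ip1 in most lymphoid classes.

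**Figure D2:**
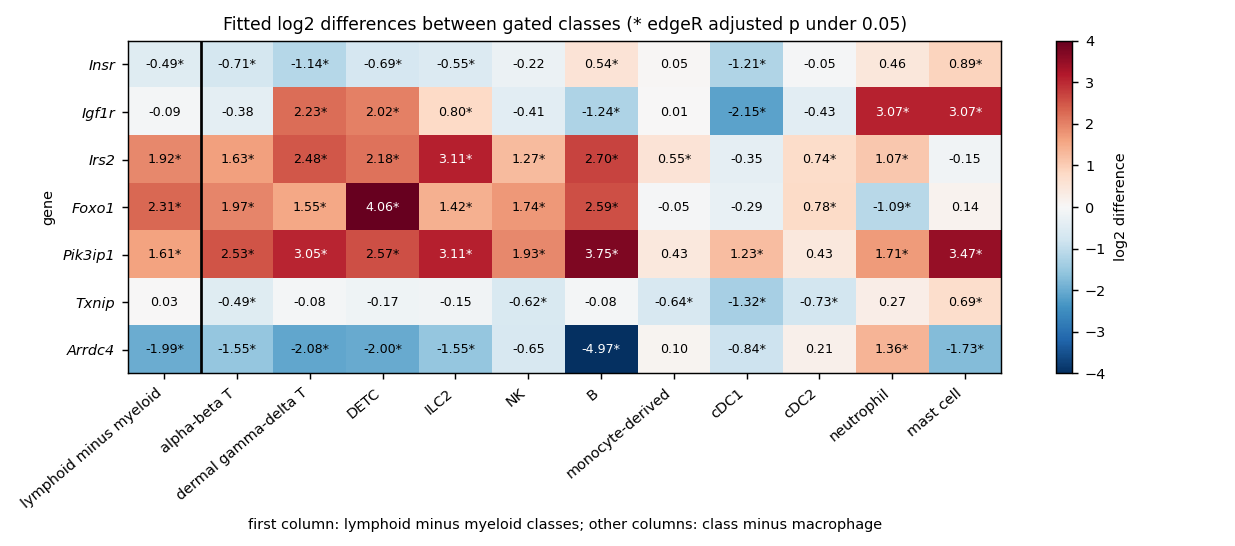
Fitted log2 differences of 7 genes (rows) between lymphoid and myeloid classes (first column) and between each class and macrophages (other columns), coloured on a scale from -4 to 4, with an asterisk at an edgeR adjusted p under 0.05. Irs2, Foxo1 and Pik3ip1 are positive in all 6 lymphoid classes, and the B cell value of Arrdc4 rests on 4 UMIs and is not a measured fold.

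Over the 47 sums, the members' levels on the log2(CPM + 1) scale were compared with each other and with 8440 genes of at least 10 CPM on average, as a description. The sums share libraries and differ in depth. Irs2 followed Foxo1 (Pearson r = 0.62) and Pik3ip1 (r = 0.63), and Igf1r followed Txnip (r = 0.59), whereas Txnip and Arrdc4, the related arrestin genes, had r = -0.20 and Insr and Igf1r r = 0.18. The genes most like each member were Prkcb, Mylip and Iffo1 for Insr (r from 0.64 to 0.75), Anxa11, Ncam1 and Flot1 for Igf1r (0.75 to 0.84), and Ets1, Jakmip1 and Ptprcap for Irs2 (0.82 to 0.84). They were Ankrd10, Wdr33 and Med12 for Foxo1 (0.87 to 0.88), Trib2, Tespa1 and Ly6a for Pik3ip1 (0.81 to 0.84), Tsc22d3 and Ccdc82 for Txnip (0.71 and 0.69) and Fxyd5, Metrnl and Tbc1d2b for Arrdc4 (0.75 to 0.77). Irs1 was too sparse for such a comparison.

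Other genes of these pathways were read from lists in the same lymphoid to myeloid fit. The counts below stand beside 34.1% of all genes called higher and 29.7% called lower in lymphoid classes. Of 37 tested genes of the insulin and PI3K pathway, 14 were higher and 15 lower in lymphoid classes, with a median log2 difference of -0.05 against 0.07 over all 11783 genes. Socs1, a suppressor of cytokine and insulin signalling, was higher by 1.74 ± 0.12 log2 units (edgeR adjusted p = 9.30e-17), as was Pik3cd, the leukocyte PI3K catalytic subunit p110 delta, by 1.02 ± 0.07 (adjusted p = 1.16e-16). Sh2b2, an adaptor of the insulin receptor, was at -4.67 ± 0.35 (adjusted p = 7.36e-15) and Tbc1d4, an AKT substrate in glucose transporter traffic, at -2.63 ± 0.34 (adjusted p = 5.21e-09). Of 21 tested glucose-sensing and alpha-arrestin genes 1 was higher, Mlxip, which encodes MondoA (0.51 ± 0.11, adjusted p = 1.43e-04), and 11 were lower, led by the inflammasome gene Nlrp3 (-4.94 ± 0.37, adjusted p = 1.07e-15) and the hexokinase Hk3 (-3.44 ± 0.69, adjusted p = 2.89e-05), with a list median of -0.23. Of 22 FoxO1-associated genes 9 were higher, among them Sesn3 (2.90 ± 0.11, adjusted p = 1.28e-25) and Ccr7 (2.32 ± 0.24, adjusted p = 3.14e-11), and 6 lower, among them Trib1 (-1.76 ± 0.13, adjusted p = 2.63e-15) and Gadd45a (-1.10 ± 0.15, adjusted p = 3.74e-08). Of 8 tested IGF ligands, binding proteins and other receptors, Igf2r was higher (1.48 ± 0.14, adjusted p = 2.65e-12) and 4 were lower, among them Igf1 itself (-2.77 ± 0.39, adjusted p = 3.42e-08) and Igfbp6 (-1.57 ± 0.67, adjusted p = 0.0386). Igfbp6 was sparse, at a mean of 0.81 CPM in lymphoid and 8.40 CPM in myeloid sums.

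The second question was how the 8 genes stood in DB against WT at each age. With 1 library per condition these are ratios of 2 libraries without a replicate check, given with exact 95% intervals for counting error only. A ratio was counted as past the fold at 1.5-fold either way, among genes with at least 20 UMIs in both libraries together and 10 CPM in the higher. A gene under 10 CPM in 1 library could thus enter through the other alone, and this held for the members and for all genes. Over the members, 13 of 71 pairs of gene and class were past it upwards (18.3%) and 4 downwards (5.63%) at 12 weeks, where 9.23% and 9.18% of the pairs of all genes were. At 21 weeks 14 of 68 pairs were past it upwards (20.6%) and 6 downwards (8.82%), against 14.5% and 15.4% of all pairs. Past 2-fold, 5 pairs were higher and 1 lower at 12 weeks, where 2.83% and 3.30% of all pairs were, and 7 and 0 at 21 weeks, where 5.47% and 5.98% were. The classes differed in this background, from 2.18% (cDC2) to 18.9% (cDC1) of genes past 1.5-fold upwards at 12 weeks and from 9.26% (macrophages) to 21.7% (DETC) at 21 weeks. Scaling by TMM factors in place of total UMIs would lower each 21-week log2 ratio over all gated leukocytes by 0.17.

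Pik3ip1 was the member with the most uniform difference at 21 weeks. Over all gated leukocytes it was at 14.2, 14.2, 17.9 and 46.3 CPM, so the 21-week-DB library stood apart from the other 3. The DB/WT ratio at 21 weeks was 2.59 (log2 1.37, interval 1.26 to 1.48), against a log2 value of 0.0038 at 12 weeks (interval -0.16 to 0.17), and 12.9% of all genes were past 1.5-fold upwards at 21 weeks. With the classes weighted as in 21-week-WT the log2 value was 0.81. Mast cells, with more Pik3ip1 than macrophages, made up 3.50% of gated leukocytes in 21-week-WT and 16.0% in 21-week-DB. Pik3ip1 was higher in DB in 8 of 8 classes that met the limits of 20 UMIs and 10 CPM. It was past 1.5-fold in 6 of them and had an interval above 0 in 5. Of the 5760 genes measurable in at least 8 classes, 8.04% were higher in every such class. The cDC2 class met the CPM limit through the DB library alone, at 13.1 CPM, and macrophages, at 9.68 CPM or less, were left out. Within classes the log2 ratio was 1.21 in alpha-beta T cells (0.90 to 1.54), 1.10 in dermal gamma-delta T cells (0.85 to 1.35), 0.53 in ILC2 (0.32 to 0.73) and 0.80 in cDC2 (0.38 to 1.22). The cDC2 value fell to 0.14 when the 5% of barcodes with most UMIs were left out. At 12 weeks Pik3ip1 was higher in 3 and lower in 3 of 6 classes that met both limits. Macrophages, under 10 CPM, were lower in DB at that age, at 4.92 and 2.77 CPM in WT and DB (log2 -0.83, interval -1.38 to -0.28). The cDC2 class, also under 10 CPM, was at -0.08 (interval -0.65 to 0.48).

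Irs2 was likewise highest in 21-week-DB over all gated leukocytes, at 97.1, 114, 121 and 231 CPM, a 21-week ratio of 1.90 (log2 0.93, interval 0.88 to 0.97). ILC2, the class with most Irs2, made up 11.7% of gated leukocytes in 21-week-WT and 25.7% in 21-week-DB. With the classes weighted as in 21-week-WT the log2 ratio was 0.36. Within classes Irs2 was higher in DB in 9 of 11 at 21 weeks, past 1.5-fold in 3, and 20.9% of genes were higher in at least that share of their classes. It was at 117 and 202 CPM in WT and DB alpha-beta T cells (log2 0.79, interval 0.63 to 0.94) and at 431 and 498 CPM in ILC2 (log2 0.21, interval 0.14 to 0.28), so its ratio in ILC2 was small. In macrophages the direction differed with age, with 47.1 and 36.1 CPM in WT and DB at 12 weeks (log2 -0.39, interval -0.55 to -0.23) and 47.5 and 61.5 CPM at 21 weeks (log2 0.37, interval 0.23 to 0.52). In DETC, Irs2 was higher in DB at both ages, by 0.82 (0.46 to 1.19) and 0.45 (0.09 to 0.83) on the log2 scale.

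Txnip stood at 565, 678, 499 and 754 CPM over all gated leukocytes, higher in DB at both ages, with log2 ratios of 0.26 (0.24 to 0.29) and 0.60 (0.57 to 0.62). With the classes weighted as in WT the 21-week value was 0.28. Txnip was higher in DB in 10 of 12 classes at 12 weeks and in 7 of 11 at 21 weeks, and 8.56% and 36.4% of genes were higher in at least those shares of their classes. At 21 weeks it was past the fold in NK cells (1.06) and in neutrophils (1.01), whose 21-week-DB sum carried stromal gate genes. In these classes 16.9% and 19.5% of all genes were past it upwards. In cDC2 Txnip was at -0.11 (interval -0.19 to -0.04) at 21 weeks. At 12 weeks it was past the fold in ILC2 (log2 0.85, interval 0.76 to 0.94), monocyte-derived cells (1.03, interval 0.83 to 1.23) and cDC1 (0.77, interval 0.47 to 1.07), classes in which 4.52%, 15.4% and 18.9% of all genes were past it upwards. In ILC2 Txnip was at 450 and 811 CPM in the WT and DB libraries of 12 weeks and at 600 and 856 CPM in those of 21 weeks. The macrophage values of Txnip were 803 and 756 CPM at 12 weeks (log2 -0.09, interval -0.12 to -0.05) and 600 and 784 CPM at 21 weeks (0.39, interval 0.35 to 0.43). DETC went the other way at both ages, at 761 and 682 CPM and then 627 and 545 CPM.

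Arrdc4 was at 32.8, 44.0, 50.4 and 49.05 CPM over all gated leukocytes, with log2 DB/WT ratios of 0.42 (0.32 to 0.53) and -0.04 (-0.12 to 0.04), the latter 0.28 with the classes weighted as in WT. Several classes were lowest in the 12-week-WT library. Alpha-beta T cells had 5.87, 20.5, 23.3 and 31.5 CPM, dermal gamma-delta T cells 4.81, 14.7, 20.9 and 16.9 CPM, and ILC2 7.90, 25.0, 27.0 and 21.2 CPM. At 12 weeks Arrdc4 was higher in DB in 7 of 9 classes and past 1.5-fold in 5, where 13.3% of genes were higher in at least that share of their classes. The log2 ratio was 1.80 in alpha-beta T cells (on 9 and 58 UMIs, with an interval from 0.78), 1.66 in ILC2 (0.99 to 2.40, on 21 and 136 UMIs) and 1.37 in monocyte-derived cells (0.72 to 2.05). Alpha-beta T cells, dermal gamma-delta T cells and ILC2 were under 10 CPM in 12-week-WT, so they entered this count through the DB library alone. The NK cell ratio, also past the fold, rested on 13 and 12 UMIs in WT and DB (0.74, interval -0.52 to 1.99). At 21 weeks it was higher in 6 of 9 and past the fold in macrophages alone, at 51.8 and 82.1 CPM (log2 0.67, interval 0.53 to 0.80). At that age 33.4% of genes were higher in at least that share of their classes, so the count of classes is a common one. From 12 to 21 weeks Arrdc4 was past the fold upwards in 6 of 9 classes in WT and in 3 of 10 in DB, where 7.07% and 10.4% of the pairs of all genes and classes were, and the difference between WT and DB was not tested. Alpha-beta T cells, dermal gamma-delta T cells and ILC2 entered the WT count through the 21-week library alone.

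Foxo1 stood at 61.5, 81.8, 62.7 and 66.0 CPM over all gated leukocytes, higher in DB by a log2 ratio of 0.41 (0.34 to 0.49) at 12 weeks and 0.07 (0.0021 to 0.15) at 21 weeks, where it was -0.09 with TMM scaling. With the classes weighted as in WT these values were 0.04 and -0.40. Within classes it was higher in 6 and lower in 5 of 11 at 12 weeks, and lower in 9 of 10 at 21 weeks, in 4 of these with an interval below 0. Igf1r was lower in 7 of 10 classes at 21 weeks. Of all genes 14.0% and 36.9% were lower in at least these shares of their classes at 21 weeks. Igf1r was past the fold downwards in 3 classes, ILC2, DETC and mast cells, where 14.7%, 18.6% and 16.0% of all genes were. It was past it upwards in 1, NK cells (log2 1.30), where 16.9% of all genes were. NK cells held 42 UMIs of Igf1r over the 4 libraries. Foxo1 was past the fold in cDC2 (51.3 and 33.5 CPM, log2 -0.62, interval -0.85 to -0.39), where 7.32% of all genes were past it downwards, and in macrophages it was at 35.8 and 25.7 CPM (-0.48, interval -0.68 to -0.28). In DETC at 12 weeks it was instead higher, at 289 and 505 CPM (0.80, interval 0.59 to 1.03). Igf1r was lower in DB in ILC2 at both ages, at 103 and 60.2 CPM at 12 weeks (log2 -0.78, interval -1.01 to -0.54) and at 109 and 55.2 CPM at 21 weeks (-0.98, interval -1.15 to -0.82), where 4.88% and 14.7% of all genes in ILC2 were past the fold downwards. It was also lower in mast cells, by -0.47 and -0.59, and in macrophages by -0.22 and -0.52 on that scale, whereas over all gated leukocytes it was at 70.5, 65.6, 63.8 and 70.1 CPM, a log2 ratio at 21 weeks of 0.14 that was -0.03 with TMM scaling. Insr had log2 ratios of -0.01 (-0.13 to 0.12) and -0.07 (-0.19 to 0.06) over all gated leukocytes, and its interval was above 0 in 1 class at 12 weeks, cDC2, and in none at 21 weeks. Its values past the fold were in monocyte-derived cells at both ages (0.63 and 0.65) and at 21 weeks in DETC (-0.70) and B cells (-0.92), on 4 to 47 UMIs a library and with intervals that included 0. In monocyte-derived cells 15.4% and 17.0% of all genes were past it upwards at 12 and 21 weeks. In DETC and B cells 18.6% and 29.6% were past it downwards at 21 weeks. Irs1 was under the 10 CPM limit in every class, so no ratio was counted. Of the 63 pairs of member and class measurable at both ages, 23 had DB/WT ratios of opposite sign and 5 of these had both intervals clear of 0, against 43.8% and 4.21% of the 71741 pairs of all genes.

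**Figure D3:**
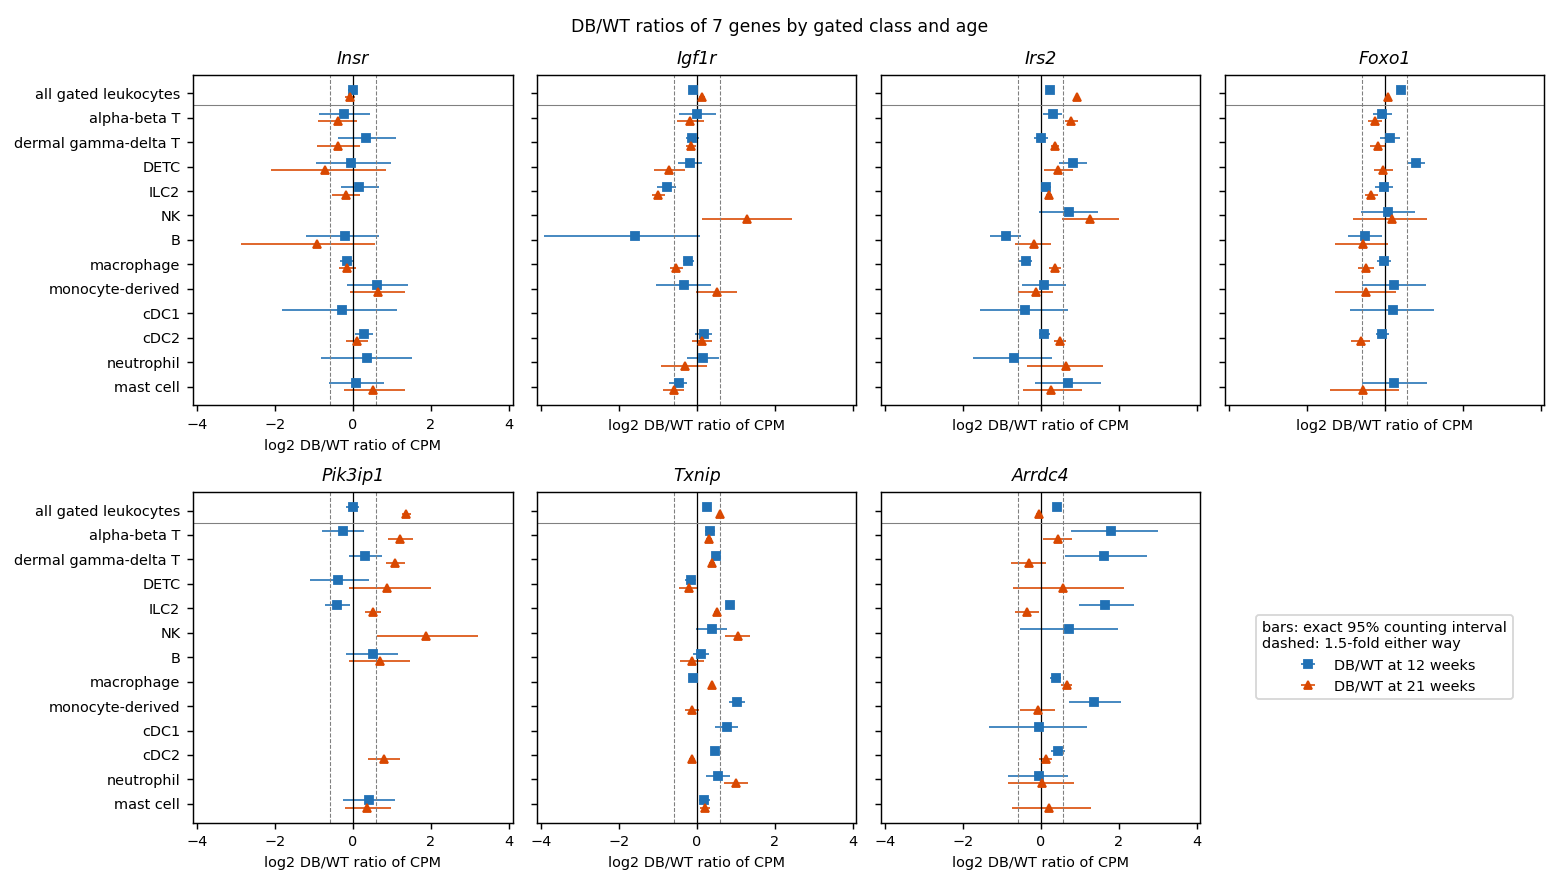
Log2 DB/WT ratio of CPM (x axis) for 7 genes over all gated leukocytes (top row) and in each gated class (other rows) at 12 weeks (blue squares) and 21 weeks (orange triangles), with exact 95% counting intervals and dashed lines at 1.5-fold either way. Classes under 20 UMIs in both libraries together, or under 10 CPM in the higher, are left out. Pik3ip1 is above 0 in all 8 classes shown at 21 weeks, and Igf1r in ILC2 is below 0 at both ages.

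Between 12 and 21 weeks the median gene over all gated leukocytes was itself lower, by a log2 ratio of -0.17 in WT and -0.16 in DB, and the file headers name Cell Ranger 5.0.0 at 12 and 6.0.0 at 21 weeks, so age and software cannot be told apart. The TMM shift of all genes in this comparison was -0.23 in WT and -0.08 in DB. In DB, Irs2 was higher at 21 weeks in 11 of 11 classes and Pik3ip1 in 7 of 7, where 5.46% of the 6887 genes measurable in at least 7 classes were higher in every one of them. In WT they were higher at 21 weeks in 8 of 12 and 6 of 7 classes, and the difference between DB and WT was not tested. For Irs2, 16.2% of the 6586 genes measurable in at least 8 classes were higher in WT in at least that share of classes. No such share was computed for the WT count of Pik3ip1. In DETC of WT mice Irs2 was at 109 and 254 CPM at 12 and 21 weeks (log2 1.22, interval 0.74 to 1.70) and Foxo1 at 289 and 643 CPM (1.15, interval 0.86 to 1.45), on 51 barcodes at 21 weeks. In DB macrophages Irs2 went from 36.1 to 61.5 CPM (0.77, interval 0.62 to 0.92) and Igf1r from 46.7 to 34.0 CPM (-0.46, interval -0.63 to -0.29).

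Pathway genes around the members were also compared between DB and WT in macrophages, the class with most barcodes over the 4 libraries together. At 12 weeks 2.55% of 8433 genes were past 1.5-fold upwards and 6.36% downwards, and at 21 weeks 9.26% and 7.84% of 8319. Of the insulin and PI3K list 0 of 36 genes were past it upwards and 2 downwards at 12 weeks (Tbc1d4, log2 -0.78, and Socs1, -0.64), and 1 (Rheb, 0.65) and 2 (Phlpp1, -0.67, and Tbc1d4, -0.62) of 35 at 21 weeks. Of the glucose-sensing list, Txn1, the thioredoxin that TXNIP binds, was at 417 and 772 CPM in WT and DB at 12 weeks (0.89, interval 0.85 to 0.94), the glucose transporter gene Slc2a3 at 0.75 and Nlrp3 at -0.74. At 21 weeks Txnrd1 was past the fold upwards (0.88, interval 0.75 to 1.0035) and Slc2a6 (-1.02) and Arrdc3 (-0.78), another alpha-arrestin gene, downwards. Of the FoxO1-associated list 0 genes were past it upwards and 6 downwards of 19 at 12 weeks, led by Prdm1 (-1.17) and Sesn1 (-0.93), and 2 (Sod2, 0.77, and Il7r, 0.69) and 2 (Sesn3, -0.69, and S1pr1, -0.68) at 21 weeks. Igf1, the ligand of IGF1R, was at 263 and 151 CPM at 21 weeks (-0.80, interval -0.88 to -0.72). The binding protein gene Igfbp4 was lower at both ages (-0.82 and -1.01), while Igf2r (0.92) was higher and Igfbp5 (-3.40) lower at 12 weeks. Igfbp5 was also lower at 21 than at 12 weeks in WT macrophages, so 12-week-WT was the higher library in both comparisons. Stromal gate genes in macrophages were at 49.4, 7.49, 10.7 and 4.73 CPM, likewise highest in 12-week-WT. Their part in the Igfbp5 ratio was not tested.

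Early response and heat-shock genes, which rise when tissue is digested, moved with some of these values. Their summed level in macrophages was 9325, 6314, 10939 and 11258 CPM, and 11 of 16 were past the fold downwards in DB at 12 weeks, led by Jun (-1.33) and Egr1 (-1.30), while 3, among them Atf3 (0.88) and Ier3 (0.84), were past it upwards at 21 weeks. In ILC2 the same sum was 16592, 17542, 15814 and 18756 CPM. The share of mitochondrial UMIs over all gated leukocytes was 3.707%, 3.142%, 3.9996% and 2.558%, lowest in 21-week-DB, where Pik3ip1 and Irs2 were highest. Their part in the ratios was not tested.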

How the data were processed

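Per the labels and file headers, the authors aligned 10x 3' reads to mm10 with Cell Ranger (5.0.0 in the 12-week headers, 6.0.0 in the 21-week headers) and deposited raw UMI counts per gene and barcode. The submitters' processing notes name 5.0.0 alone, so these sources differ on the 21-week version. Barcodes of under 200 genes or over 10% mitochondrial UMIs were dropped. A barcode joined the class with the highest mean of 6 marker levels, each per 10000 UMIs and capped at the 75th percentile of barcodes with at least 2 of its UMIs. It needed a score of at least 0.15, at least 2 markers detected and a second score of at most 0.75 of the first; these limits were set after the data were seen, from markers kept out of the gate. No doublet caller was run, and 3953 barcodes that fell between 2 gates were left out. UMI counts were summed per class and library (at least 20 barcodes) and fitted by the quasi-likelihood test of edgeR 4.0.16 (R 4.3.3) with a library term, TMM factors and filterByExpr, at an adjusted p under 0.05, after a test on simulated data. DESeq2 1.42.0 was an alternative. The 47 sums come from 4 pools, so p-values measure the spread between these sums. Ratios used exact conditional binomial intervals at 95%. Named genes are the 8 members, their 3 most alike genes, and from each list the 2 highest and 2 lowest called or past-fold genes; 1 gene under this rule is not reported here. The members and lists were chosen with earlier results of these data known. Promoters came from RefSeq, with no entry for Insr, and gene positions from GENCODE M21.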

Additional observations from a re-analysis of the deposited data

Results flagged for a closer look

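The DB/WT log2 ratio went opposite ways at the 2 ages, with both counting intervals clear of 0, for 5 of the 63 pairs of gene and class measurable at both, where 4.21% of the pairs of all genes did so. The difference between ages (21 minus 12 weeks) was not tested, since each condition had 1 library. For Arrdc4 in ILC2 it was -2.005, from 1.66 to -0.34, and the 12-week-WT library had 21 UMIs. For Pik3ip1 in ILC2 it was 0.93, from -0.40 to 0.53. For Irs2 in macrophages it was 0.76, from -0.39 to 0.37, and for Txnip in macrophages 0.47, from -0.09 to 0.39. For Txnip in cDC2 it was -0.57, from 0.46 to -0.11. Over all gated leukocytes Igf1r differed by 0.24, from -0.10 to 0.14, and its 21-week value was -0.03 with TMM scaling.

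Outside the leukocyte classes, Irs1 had 38 UMIs in 93 stromal-gated barcodes, or 55.1 CPM, against 40 UMIs in all 22437 gated leukocytes, or 0.218 CPM. By library the stromal level was 80.0, 52.4, 50.8 and 28.5 CPM, on 16, 9, 9 and 4 UMIs. These barcodes passed a CD45+ sort and carried stromal markers.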

How the results depend on the processing

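The lymphoid to myeloid calls of Insr, Irs2, Foxo1, Pik3ip1 and Arrdc4 kept their direction and call under every alternative run. Igf1r and Txnip, which were not called, changed sign: Igf1r ranged from -0.20 to 0.033 and Txnip from -0.033 to 0.088 when a library was left out, and Txnip was -0.016 with barcodes of 2 gates kept and -0.030 without the 5% of barcodes with most UMIs. The number of genes lower in cDC1 than in macrophages ranged from 1549 to 2396 when a library was left out (2338 with all of them), 1549 being without 21-week-WT. Taking a fold of at least 2 left 5 pairs of member and class higher and 1 lower in DB at 12 weeks, and 7 and 0 at 21 weeks. Arrdc4 in NK cells at 12 weeks changed from 0.74 to -0.25 under the stricter gate, on few UMIs. Of 2132 recomputed ratios, 2050 kept their side of the fold. Irs2 over all leukocytes in DB, 21 against 12 weeks, was 0.56 with classes weighted as at 12 weeks, an alternative chosen after seeing the data like the removal of shared barcode sequences. No paired analysis was possible because each group has 1 library and so 1 replicate number; a fit of genotype and age over the 4 libraries, which would leave 1 residual degree of freedom, was not run. Small classes limit depth: cDC1 had 13 to 70 barcodes and NK cells 30 to 83. Thinning to 2000 UMIs, which left out shallower barcodes, moved 71 of 96 mean percents of barcodes with a UMI by more than their SD over libraries.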
